A study of Mus musculus with 12 samples.

Results

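The genes described here are 31 mouse genes of nucleotide excision repair and base excision repair, taken as a fixed list of symbols; the rule that picks them uses no measured value, though the list was drawn up with earlier results of these data known. All 31 were matched to 1 Ensembl identifier each among the 37991 in the count tables, and all 31 passed the filter on low counts that left 15098 genes to test. They were measured by RNA sequencing in 12 libraries of mouse embryonic fibroblasts, connective tissue cells cultured from embryos. Per the labels, the cells were primary cultures of male C57BL/6N embryos at E15.5, taken at passage 4 and at 80% confluency, from crosses of mice deficient for Ing1 with mice deficient for Gadd45a. The 4 groups of 3 libraries were the wild type (WT), Ing1-/- (Ing1 KO), Gadd45a-/- and Gadd45a-/-;Ing1-/- (DKO).

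Both knockouts were carried by the animal from conception, with no added agent in any group, and the sources used here do not give which part of either gene was removed. The product of Ing1 is a histone mark reader of chromatin complexes. Gadd45a encodes a stress-induced protein that has been tied to DNA repair and to DNA demethylation through excision repair. Whether libraries of 1 genotype stem from different embryos is not in the labels. The p-values thus set each difference against the spread between libraries, which may be technical.

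Nucleotide excision repair removes bulky lesions such as those left by ultraviolet light. Damage is found either anywhere in the genome, by XPC and the DDB complex, or where it stalls RNA polymerase, by the Cockayne syndrome proteins; the TFIIH complex then opens the helix, and a pair of nucleases cuts out the damaged strand. Base excision repair removes small base lesions: a glycosylase lifts out the damaged base, and a polymerase and a ligase fill and seal the gap. TFIIH and its kinase also serve in the start of transcription, so those genes are needed by every cell.

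Each library held 31493168 to 42852059 counts in genes, with single counts of the 31 genes from 86 to 49260. Ing1 stood at 52.1, 50.4 and 54.4 CPM (counts scaled to the library total) in WT libraries and at 49.7, 54.5 and 52.2 CPM where the label is Gadd45a-/-. Its values were 1.01, 1.23 and 1.42 CPM for Ing1 KO and 1.29, 0.916 and 1.14 CPM for the label DKO, so it was low wherever the label says that it is lacking. Gadd45a counts went against the labels: WT libraries held 20.9 to 21.3 CPM and those of Ing1 KO 16.7 to 20.5, while those labelled Gadd45a-/- held 75.9 to 118.2 and those labelled DKO 119.9 to 132.4 CPM. A count over the whole gene does not check a deletion of a part of it, so these groups are called the labelled Gadd45a KO and the labelled DKO, and directions given for them rest on the labels. The 14 fibroblast markers summed to between 65872.7 and 80118.2 CPM per library, mostly from abundant matrix genes, with none at 0.

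In the WT fibroblasts the 31 genes covered a 230-fold range per length of exon. Of these genes 9 share exon bases with another gene, among them Lig3 (1826 of 7284 bases), Mpg (1340 of 3752) and Ddb2 (652 of 2736). Reads there cannot be assigned without strand, and the full exon length was used, so these levels may be too low. Ddb1, the adaptor that joins DNA damage sensing and many other substrates to the CUL4 ubiquitin ligase, was the highest at 171.6 ± 0.95 CPM per kilobase of exon (SD, n = 3, as are all values of this kind). Rad23b, which steadies XPC, followed at 51.9 ± 2.8 CPM per kilobase. Next came Gtf2h1 at 25.5 ± 0.72 and Cdk7 at 22.7 ± 0.48 CPM per kilobase, genes of TFIIH and its kinase. Ercc3 at 20.0 ± 0.38 and the polymerase subunit gene Pold4 at 19.8 ± 1.2 CPM per kilobase had overlapping library ranges. Ercc3 encodes a TFIIH subunit that opens the helix, and Cdk7 the catalytic part of the kinase. The sensors of the damage itself were far lower: Xpc stood at 3.41 ± 0.27 and Ddb2, the partner of DDB1 that binds ultraviolet lesions, at 1.5 ± 0.079 CPM per kilobase. Among the base excision genes Parp1, whose protein senses strand breaks, led at 15.3 ± 0.46 CPM per kilobase, while the glycosylase genes ran from Ogg1 at 4.0 ± 0.096 down to Ung at 0.862 ± 0.096 CPM per kilobase. The lowest of the 31 was Ercc8, a Cockayne syndrome gene, at 0.748 ± 0.064 CPM per kilobase, and its library range overlapped that of Ung. Of the 30 pairs of neighbours in this order, 15 had overlapping ranges over the WT libraries, among them most of the crowded stretch from Ercc1 to Ogg1.

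**Figure D1:**
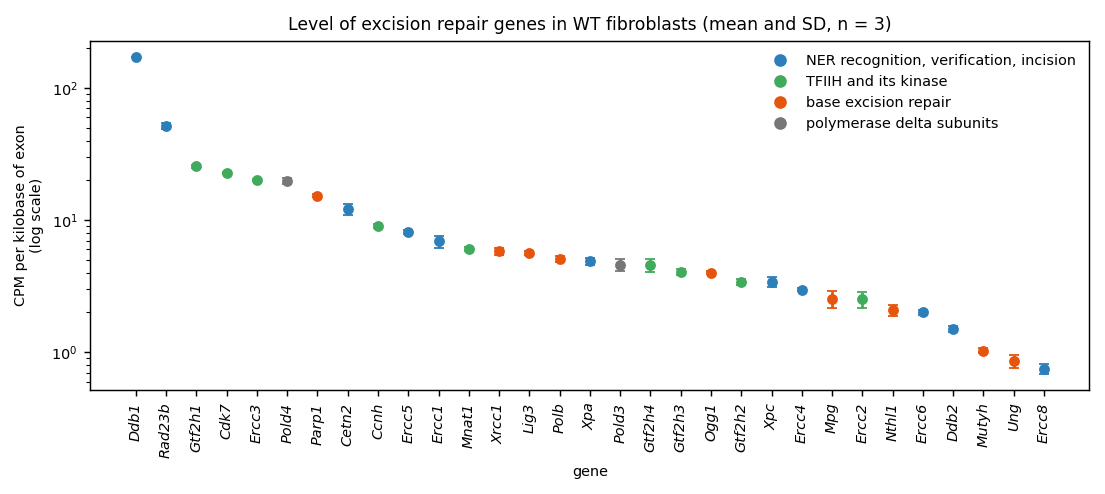
Level of each of the 31 genes in the WT libraries, in CPM per kilobase of exon on a log axis, as the mean and SD of 3 libraries, ordered from high to low and coloured by role. Ddb1 stands at 171.6 and Ercc8 at 0.748 CPM per kilobase, and along the middle of the order neighbouring genes often lie within each other's error.

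Most of the excision repair genes differed little between the 4 genotypes, and 12 of the 31 were called in at least 1 comparison. Their summed level was 2159.7 to 2171.6 CPM in the WT, 2161.5 to 2188.3 in the labelled Gadd45a KO, 2202.4 to 2266.9 in Ing1 KO and 2187.2 to 2267.1 in the labelled DKO, of which Ddb1 made up 1094.3 to 1181.6 CPM in any library. Every sum in both groups without Ing1 lay above every sum in the WT, and 2 abundant genes weigh most in it. Ddb1 averaged 1099.8 CPM in the WT, 1132.9 in Ing1 KO and 1127.5 in the labelled DKO. Rad23b averaged 297.4, 334.8 and 326 CPM in that order, and neither was called against the WT. Gene by gene, 16 of the 31 had a positive log2 fold change in Ing1 KO and 12 in the labelled DKO. Across all 6 comparisons made, 19 of the 31 genes (61.3%) were called in none, that is, had an adjusted p of 0.05 or more in edgeR's quasi-likelihood test, against 51% of all genes tested. The highest of 12 libraries was 1.25 times the lowest in the median of the 31 genes, and 1.42 times in the median of all genes. The median size of a log2 fold change over the 31 genes was 0.07 in Ing1 KO, 0.06 in the labelled Gadd45a KO and 0.09 in the labelled DKO against the WT, beside 0.15, 0.08 and 0.15 over all genes tested.

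The intervals of these differences were narrow. In Ing1 KO against the WT the 95% interval of the fold change lay wholly within 1.25-fold either way for 24 of the 31 genes (77.4%), against 43% of all genes tested. In the labelled Gadd45a KO it did for 26 (83.9%, against 55.8%), and in the labelled DKO for 23 (74.2%, against 44.2%). Such intervals narrow with the count, and the part of the genes' abundance in these shares was not tested. The 1.25-fold limit was chosen after the values were seen.

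**Figure D2:**
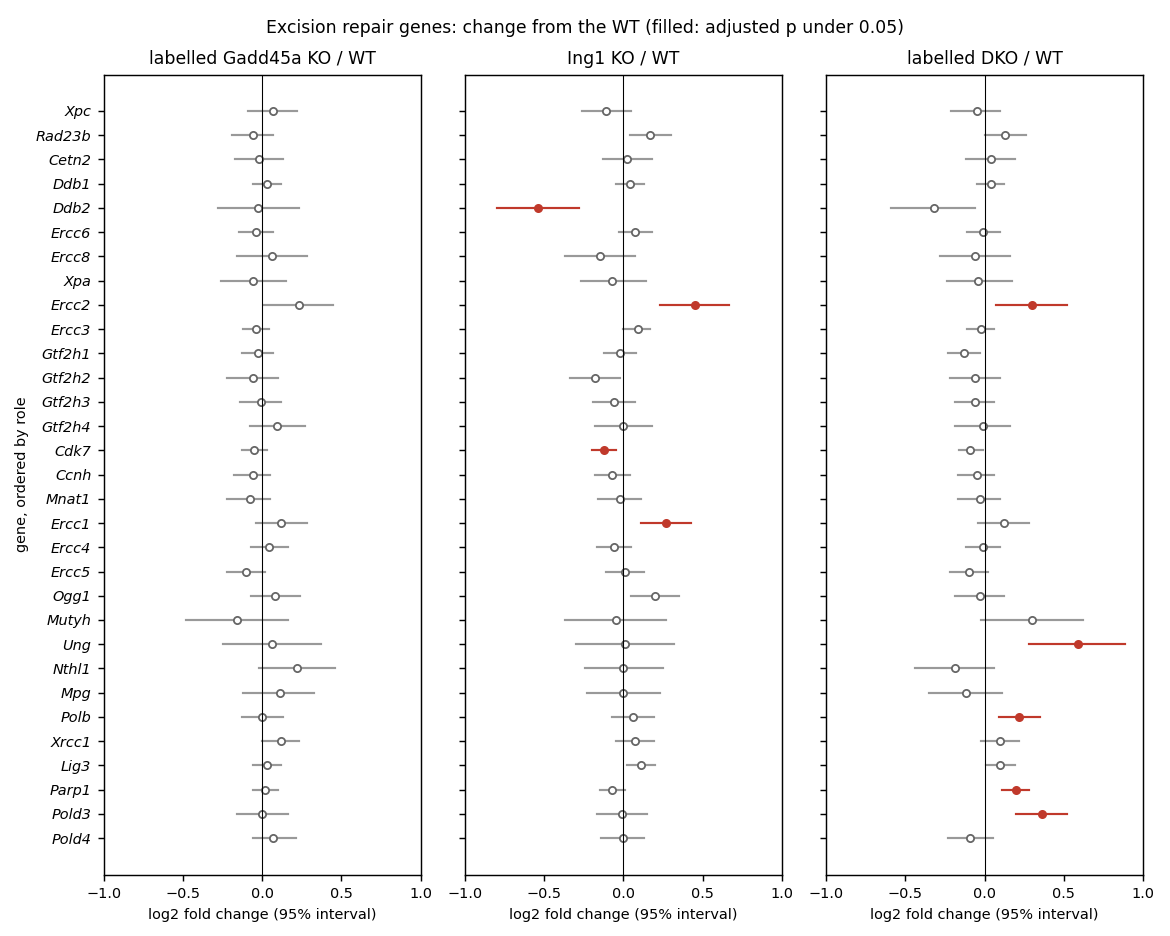
Log2 fold change from the WT with its 95% interval (x axis) for each of the 31 genes (y axis, in order of role) in the labelled Gadd45a KO, Ing1 KO and the labelled DKO; filled red points have an adjusted p under 0.05. No gene is filled in the first panel, 4 are in the second and 5 in the third, and most intervals lie close to 0.

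Against the WT, no excision repair gene was called in the labelled Gadd45a KO, where 0.00662% of all genes tested (1 gene, Gadd45a) were called. The smallest adjusted p among the 31 was 0.553 (edgeR), 1 gene, Ercc2, had an unadjusted p under 0.05, and DESeq2 called 0 of the 31 too. Of these genes 16 had a positive and 15 a negative log2 fold change, with a median of 0, as over all genes. The largest estimates belonged to Ercc2, at 0.23 ± 0.1 (SE, 95% interval 0.01 to 0.45), and to the glycosylase gene Nthl1, at 0.22, with an interval that reached 0.46. The widest bound on the low side was that of Mutyh, at -0.48. The libraries of both groups did not overlap for 3 of the 31 genes (9.68%), Ddb1, Mnat1 and Ogg1, against 14.7% of all genes tested.

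In Ing1 KO against the WT 4 of the 31 genes changed: Ddb2 and Cdk7 fell, and Ercc2 and Ercc1 rose. This is 12.9% of them, against 23.5% of all genes tested, and the median log2 fold change of the 31 was 0, as it was over all genes. The libraries of both groups did not overlap for 9 of them (29%), against 37.2% of all genes. The level of Ddb2 was 3.87, 4.2 and 4.27 CPM in the WT but 2.89, 2.67 and 2.9 CPM in Ing1 KO. It was 4.58, 3.61 and 3.92 CPM in the labelled Gadd45a KO and 3.31, 3.48 and 3.08 CPM in the labelled DKO. Every library of both groups without Ing1 lay below every library with it. The fall in Ing1 KO was 1.46-fold, with a log2 fold change of -0.54 ± 0.12 (SE; adjusted p by edgeR 0.00694). The labelled DKO did not pass the threshold against the WT (-0.32 ± 0.12, adjusted p = 0.0674), nor against the labelled Gadd45a KO (-0.3 ± 0.12, adjusted p = 0.0889). The interaction, which asks whether the change with Ing1 loss differed between the backgrounds, was not called (0.24 ± 0.17, edgeR adjusted p = 0.348). Ddb2 shares 652 bases of exon with Acp2, a lysosomal phosphatase gene, and reads from the shared bases cannot be assigned without strand. Acp2 went from 73.1 ± 1.5 CPM in the WT to 66.5 ± 3.7 CPM in Ing1 KO (SD, n = 3, edgeR adjusted p = 0.0526). In the labelled DKO it stood at 77.3 ± 3.4 CPM (edgeR adjusted p = 0.241 against the WT). The part of Acp2 reads in the level of Ddb2 was not tested. Of 24 p53 target genes, a list without Ddb2, 14 rose and 2 fell in Ing1 KO, with a median log2 fold change of 0.29; any relation to Ddb2 was not tested.

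Markers of cell identity also moved in Ing1 KO. Of the 14 fibroblast markers 3 rose and 5 fell against the WT, and 6 had a positive and 8 a negative log2 fold change. Of all genes tested in that comparison, 12.1% were called higher and 11.4% lower. The 10 cartilage markers summed to 94.0, 92.4 and 43.8 CPM in Ing1 KO against 29.4 to 38.6 CPM in the WT, with 3 of 8 tested genes called higher and none at 0 in every library. The 9 skeletal muscle markers summed to 42.4 to 67.3 CPM against 21.5 to 26.5 CPM in the WT. Of 4 tested muscle genes 1 was called higher and 2 lower, with a median log2 fold change of -0.37. A mean under 1 CPM over the libraries was found for 7 of the 9 muscle and 6 of the 10 cartilage markers, so few genes carried these sums. Myod1, Myog and Myf5, which define that lineage, were too low to test. The part of these shifts in the changes of Ddb2, Cdk7, Ercc1 and Ercc2 was not tested.

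Xpc, the gene of the other global sensor, was not called in any comparison and ranged from 16.3 to 20.5 CPM over the 12 libraries. Rad23b stood at 288.3, 288.2 and 315.6 CPM in the WT and at 272.3, 291.9 and 290.3 CPM in the labelled Gadd45a KO. Without Ing1 it stood at 328.1, 357.3 and 319.1 CPM in Ing1 KO and at 331.9, 302.3 and 343.9 CPM in the labelled DKO. The groups without Ing1 were the higher, and only the labelled DKO against the labelled Gadd45a KO passed the test, at 1.14-fold (log2 fold change 0.19, adjusted p = 0.0287). That call was lost without any 1 of the 3 Gadd45a KO replicates and without DKO replicate 1 or 3 (adjusted p up to 0.12). Cetn2, the centrin that joins XPC, and Ddb1 were not called anywhere, and Ddb1 moved within 1.08-fold over all libraries. The Cockayne syndrome genes Ercc6 (24.4 to 27.7 CPM) and Ercc8 (5.03 to 6.28 CPM) and Xpa, whose protein checks the lesion (7.82 to 9.8 CPM), were not called either.

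Within TFIIH the genes did not move together. Ercc2, which encodes the XPD helicase, had levels of 12.0, 9.95 and 9.47 CPM in the WT but 13.4, 16.1 and 13.5 CPM in Ing1 KO. It stood at 12.9, 12.2 and 11.8 CPM in the labelled Gadd45a KO and 13.5, 11.9 and 13.3 CPM in the labelled DKO. The WT was the lowest group, and the Ing1 KO libraries lay above all of its libraries. Ercc2 rose 1.36-fold in Ing1 KO, by 0.45 ± 0.1 on the log2 scale (edgeR adjusted p = 0.00703). It was also called in the labelled DKO against the WT, at 1.23-fold (adjusted p = 0.0487), with overlapping libraries. That call was lost in 10 of 11 alternatives, with an adjusted p of up to 0.162. The other 5 core genes were called in no comparison: Ercc3, Gtf2h1, Gtf2h2, Gtf2h3 and Gtf2h4, with ranges from 13.1 to 16.5 CPM for Gtf2h4 up to 66.4 to 78.2 CPM for Gtf2h1.

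Of the 3 genes of the TFIIH kinase, which phosphorylates RNA polymerase II and activates cell cycle kinases, Cdk7 fell in Ing1 KO and Ccnh and Mnat1 were not called. Cdk7 stood at 82.6, 83.5 and 86.0 CPM in the WT, 79.5, 81.1 and 82.7 in the labelled Gadd45a KO, 78.5, 76.1 and 76.7 in Ing1 KO and 78.9, 80.5 and 78.0 in the labelled DKO. The WT was the highest group, and the difference to Ing1 KO was small, 1.09-fold (log2 fold change -0.12 ± 0.04, edgeR adjusted p = 0.0245). It was lost in 6 of 11 alternatives (adjusted p up to 0.118), among them those without WT replicate 2 or 3 or Ing1 KO replicate 2 or 3.

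Of the 3 nuclease genes, Ercc1 was the one called. Its protein cuts the damaged strand on 1 side together with that of Ercc4, and the protein of Ercc5 cuts on the other side. Ercc1 stood at 23.7, 21.6 and 19.2 CPM in the WT, 22.7, 24.2 and 23.2 in the labelled Gadd45a KO, 25.1, 27.0 and 25.7 in Ing1 KO and 24.4, 21.7 and 23.9 in the labelled DKO. Its rise in Ing1 KO was 1.21-fold (log2 fold change 0.27 ± 0.07, edgeR adjusted p = 0.0173). Without WT replicate 2, WT replicate 3 or Ing1 KO replicate 2, and with only both compared groups in the fit, the call was lost (adjusted p up to 0.0764). Ercc4 (18.7 to 21.1 CPM) and Ercc5 (42.2 to 48.5 CPM) were not called in any comparison.

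Ercc1 and Ercc2 lie next to each other on mouse chromosome 7, separated by Cd3eap, which encodes a subunit of RNA polymerase I, and Ppp1r13l, which encodes the p53 inhibitor iASPP. These genes and the surrounding ones were looked up after the rise of both repair genes was seen. In Ing1 KO against the WT, Ppp1r13l rose (20.5 ± 1.6 CPM in the WT) and so did Cd3eap, from 13.1 ± 1.5 to 16.4 ± 0.86 CPM (SD, n = 3; log2 fold changes 0.6 and 0.32, edgeR adjusted p = 0.000472 and 0.0151). Vasp, an actin regulator gene on one side, rose by 0.44 (log2, adjusted p = 0.000531), and Mark4, a kinase gene on the other side, by 0.28 (adjusted p = 0.00386). Rtn2, between Vasp and Ercc1, fell (-0.35, adjusted p = 0.0451), and Fosb (0.29, adjusted p = 0.239) and Klc3 (0.42, adjusted p = 0.0925) were not called. Of the 7 tested genes of this stretch other than Ercc1 and Ercc2, 4 thus rose and 1 fell. The stretch was chosen for the rise of that pair, so this count is a description. Ercc1 shares 106 bases of exon with Cd3eap, and Ercc2 shares bases with Klc3, so part of the reads of these pairs could not be told apart. In the labelled DKO against the WT, Vasp, Fosb, Cd3eap, Ppp1r13l and Ercc2 were called higher; in the labelled Gadd45a KO none of the 9 was.

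**Figure D3:**
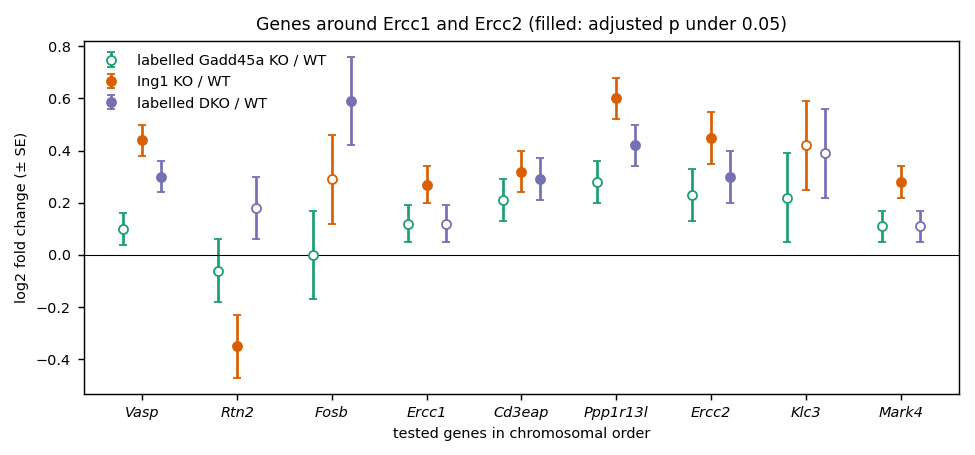
Log2 fold change from the WT with its SE (y axis) for the tested genes around Ercc1 and Ercc2 in chromosomal order (x axis), in the labelled Gadd45a KO, Ing1 KO and the labelled DKO; filled points have an adjusted p under 0.05. In Ing1 KO 6 of the 9 genes are filled above 0 and Rtn2 is filled below it, at -0.35.

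The labelled DKO differed from the WT in 5 of the 31 genes, and all 5 rose: Ung, Pold3, Polb and Parp1 besides Ercc2. This share of 16.1% stood below the 25.9% of all genes called in that comparison, and the share called higher (5 of 31) was close to the 15.6% of all genes. None of the 31 was called lower by edgeR, against 10.3% of all genes; Ddb2, Gtf2h1 and Cdk7 (3 genes) were lower at an unadjusted p under 0.05. The libraries did not overlap for 10 of the 31 (32.3%), against 41.3% of all genes, and the median log2 fold change over the 31 was -0.02. Of those that rose besides Ercc2, Ung, Polb and Parp1 belong to base excision repair and Pold3 to the polymerase that fills repair and replication gaps. The other genes of these roles were not called. Of the 5 glycosylase genes 3 had negative log2 fold changes (Ogg1 -0.03, Nthl1 -0.19 and Mpg -0.12). Mutyh stood at 0.3, Xrcc1 and Lig3 at 0.1 each and Pold4 at -0.09.

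Ung encodes the glycosylase that removes uracil from DNA. It stood at 4.17, 5.21 and 4.75 CPM in the WT, 4.37, 5.78 and 4.59 in the labelled Gadd45a KO and 5.27, 4.6 and 4.37 in Ing1 KO. In the labelled DKO it stood at 7.68, 7.61 and 5.97 CPM, above all 9 other libraries. The share of all genes tested with that order, which Pold3, Parp1 and Polb have too, was not counted. The rise was 1.5-fold against the WT (0.59 ± 0.14 in log2; edgeR adjusted p = 0.00837), 1.44-fold against the labelled Gadd45a KO (adjusted p = 0.0146) and 1.49-fold against Ing1 KO (adjusted p = 0.00998). Without Gadd45a KO replicate 1 or 3, or DKO replicate 1 or 2, the call against the labelled Gadd45a KO was lost (adjusted p up to 0.0642). Its interaction was not called (0.52 ± 0.2, 95% interval 0.08 to 0.95, adjusted p = 0.091).

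Pold3 encodes a small subunit of DNA polymerase delta. Its level was 19.1, 23.6 and 20.7 CPM in the WT, 20.6, 21.8 and 21.1 in the labelled Gadd45a KO, 20.9, 20.0 and 22.2 in Ing1 KO and 28.5, 26.2 and 26.6 in the labelled DKO. Again the libraries labelled DKO stood above all 9 others, by 1.28-fold against the WT (log2 fold change 0.36 ± 0.07, edgeR adjusted p = 0.00318). The interaction was 0.36 ± 0.1 (adjusted p = 0.0305), while Ing1 KO and the labelled Gadd45a KO had log2 fold changes from the WT of -0.01 and 0. That interaction lost its call without WT replicate 2 or 3, Gadd45a KO replicate 1 or 3, Ing1 KO replicate 2 or DKO replicate 1 (adjusted p up to 0.0789). Pold4, the gene of the smallest subunit of the same polymerase, was not called anywhere (20.5 to 25.8 CPM).

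Parp1 stood at 82.0, 83.2 and 78.5 CPM in the WT, 82.1, 80.8 and 83.6 in the labelled Gadd45a KO, 77.6, 76.3 and 78.2 in Ing1 KO and 93.8, 94.7 and 90.5 in the labelled DKO. It was highest in every library labelled DKO and lowest in Ing1 KO. The rise was 1.14-fold against the WT (log2 fold change 0.2 ± 0.04, edgeR adjusted p = 0.00225), 1.13-fold against the labelled Gadd45a KO (adjusted p = 0.00381) and 1.2-fold against Ing1 KO (adjusted p = 0.000487). The interaction was 0.25 ± 0.05 (adjusted p = 0.00932) and was called in all 16 alternatives tried for it.

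Polb encodes the polymerase that fills the gap of a single lost base. It stood at 19.0, 19.8 and 21.3 CPM in the WT, 19.1, 20.1 and 20.8 in the labelled Gadd45a KO, 20.8, 20.8 and 20.9 in Ing1 KO and 23.3, 24.4 and 22.1 in the labelled DKO. The libraries labelled DKO lay above the other 9, by 1.16-fold against the WT (log2 fold change 0.22 ± 0.06, edgeR adjusted p = 0.0159), and against Ing1 KO the difference was not called (0.16, adjusted p = 0.0634). Against the WT the call was lost without WT replicate 1 or 2 or DKO replicate 2 and with only both compared groups in the fit (adjusted p up to 0.0742), and against the labelled Gadd45a KO (1.16-fold, adjusted p = 0.0152) without Gadd45a KO replicate 1 or DKO replicate 2. Its partners downstream, the scaffold gene Xrcc1 (31.3 to 37.9 CPM) and the ligase gene Lig3 (39.8 to 46.0 CPM), were called in no comparison.

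**Figure D4:**
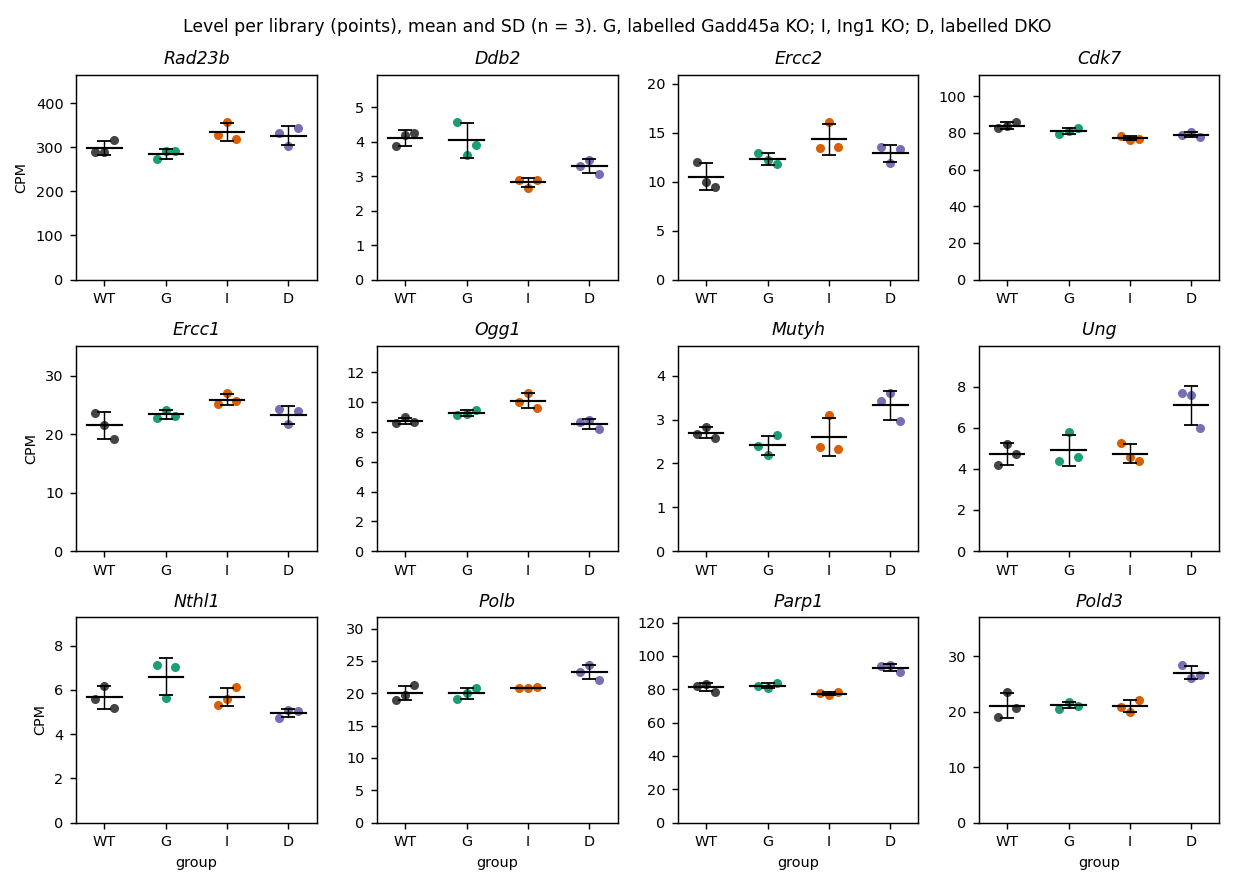
Level in CPM (y axis, from 0) of the 12 genes called in at least 1 comparison, with a point per library and the mean and SD of 3 libraries per group (x axis). For Ung, Pold3, Parp1 and Polb the 3 libraries labelled DKO lie above the other 9, and for Ddb2 both groups without Ing1 lie below both with it. The shares of all genes tested with these patterns were not counted.

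Ung, Parp1 and Pold3 were the 3 genes called higher in the labelled DKO against each of the other groups, and their proximal promoters are shown here for that reason. Of all genes tested, 15.6% were called higher against the WT, 15.8% against the labelled Gadd45a KO and 14.9% against Ing1 KO. The share called higher against every group was not counted. The sequences are those of RefSeq on GRCm38.p6, 250 bases up to the start of the gene, written 5′ to 3′ on the strand of the gene, with the word GGGCGG (a GC box, to which Sp1-type factors are known to bind) or its complement CCGCCC in capitals. That word was chosen after the sequences were seen.
Ung (chr5:114130185-114130434, plus strand): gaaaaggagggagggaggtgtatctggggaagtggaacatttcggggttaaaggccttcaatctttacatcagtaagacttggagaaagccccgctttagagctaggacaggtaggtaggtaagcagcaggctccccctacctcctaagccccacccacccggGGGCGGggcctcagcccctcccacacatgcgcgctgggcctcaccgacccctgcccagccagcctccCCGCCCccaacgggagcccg
Parp1 (chr1:180568641-180568890, plus strand): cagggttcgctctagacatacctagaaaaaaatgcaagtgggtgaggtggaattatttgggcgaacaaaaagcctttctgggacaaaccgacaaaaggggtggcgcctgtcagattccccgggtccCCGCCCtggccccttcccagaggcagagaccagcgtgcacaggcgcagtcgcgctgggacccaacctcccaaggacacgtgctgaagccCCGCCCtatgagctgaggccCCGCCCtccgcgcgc
Pold3 (chr7:100121503-100121752, minus strand): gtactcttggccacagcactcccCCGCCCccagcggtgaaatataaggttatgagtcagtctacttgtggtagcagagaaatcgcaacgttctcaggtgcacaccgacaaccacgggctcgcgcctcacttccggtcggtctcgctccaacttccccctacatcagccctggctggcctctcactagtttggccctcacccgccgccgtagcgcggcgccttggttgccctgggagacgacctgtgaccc

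The GC box occurred in each of these windows, 2 times in that of Ung, 3 times in that of Parp1 and 1 time in that of Pold3. Of the 31 genes, 26 had a window in that table. Leaving out the 3 genes shown, 15 of the other 23 (65.2%) held the word on either strand, and 35.4% of all symbols in the table did (32.7% of its 32851 windows); with the word chosen afterwards, these shares are a description. The E2F words TTTCCCGC, TTTCGCGC, TTTGCCGC and TTTGGCGC, searched on both strands because E2F factors drive many S phase genes, were in none of these 3 windows. They were in 1 of the 26 genes, Nthl1, and in 2.16% of all symbols (1.86% of all windows). Words this rare are absent from most windows, so their absence here says nothing on how these 3 genes are controlled. TTTGAA, the CHR word of many mitotic genes, was in 2 of the 26 genes and 18.3% of all symbols (16% of all windows). These are matches of letters only.

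The remaining glycosylase genes split. Mutyh, whose protein removes adenine paired with oxidised guanine, stood at 2.67, 2.83 and 2.59 CPM in the WT, 2.4, 2.19 and 2.64 in the labelled Gadd45a KO, 2.38, 3.11 and 2.33 in Ing1 KO and 3.42, 3.6 and 2.97 in the labelled DKO. It was called only against the labelled Gadd45a KO, at 1.38-fold (edgeR adjusted p = 0.0341), and this call was lost without Gadd45a KO replicate 1 or 2, without DKO replicate 1 or 2, with no filter on low counts, and with DESeq2, with an adjusted p of up to 0.127. Nthl1, whose protein removes oxidised pyrimidines, went the other way. It stood at 5.58, 6.2 and 5.2 CPM in the WT, 7.14, 5.65 and 7.03 in the labelled Gadd45a KO, 5.32, 5.59 and 6.12 in Ing1 KO and 4.75, 5.09 and 5.07 in the labelled DKO. The labelled DKO was lowest, and 1.33-fold lower than the labelled Gadd45a KO (log2 fold change -0.41 ± 0.11, adjusted p = 0.0167). That call was lost without Gadd45a KO replicate 1 or 3 or DKO replicate 1 (adjusted p up to 0.0733). Mpg, the alkyladenine glycosylase gene, was not called (8.33 to 11.2 CPM).

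Ogg1, whose protein removes oxidised guanine, stood at 8.58, 8.99 and 8.69 CPM in the WT, 9.11, 9.21 and 9.51 in the labelled Gadd45a KO, 10.0, 10.6 and 9.62 in Ing1 KO and 8.69, 8.78 and 8.17 in the labelled DKO. Both single knockout groups lay above the WT, and the labelled DKO did not. Neither of those single knockout differences was called (edgeR adjusted p = 0.0527 for Ing1 KO and 0.764 for the labelled Gadd45a KO). The difference of the labelled DKO from Ing1 KO was -0.24 ± 0.07 (log2, edgeR adjusted p = 0.0259), and the interaction was -0.32 ± 0.1 (adjusted p = 0.0418). The interaction lost its call in 14 of 16 alternatives (adjusted p up to 0.109), and the difference from Ing1 KO lost it without Ing1 KO replicate 2 or DKO replicate 1 or 3, with no filter on low counts and with only both compared groups in the fit (adjusted p up to 0.114). Ogg1 shares 232 bases of exon with Camk1.

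Set against the labelled Gadd45a KO, which asks what Ing1 loss did in that background, the labelled DKO had 6 of the 31 genes higher and 1 lower: Rad23b, Mutyh, Ung, Polb, Parp1 and Pold3 rose and Nthl1 fell. That is 22.6%, against 26.4% of all genes (15.8% higher and 10.6% lower), and 13 genes (41.9%) had libraries that did not overlap, against 45.7%. Set against Ing1 KO it had Ung, Parp1 and Pold3 higher and Ogg1 lower, 12.9% against 24.8% of all genes (14.9% higher and 9.88% lower), and 10 genes (32.3%) had libraries that did not overlap, against 39.1%. The interaction was called for 3 of the 31, Parp1 and Pold3 upward and Ogg1 downward, 9.68% against 17.8% of all genes (10.4% higher and 7.4% lower). The comparisons of the labelled DKO share its 3 libraries, so that the recurrence of Ung, Parp1 and Pold3 is not independent evidence.

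The rest of the pathway had a larger share called in the labelled DKO than the 31 genes, and that difference was not tested. Of 41 other excision repair genes, which include the clamp, clamp loader and polymerase genes shared with replication, 15 rose and 2 fell against the WT, with a median log2 fold change of 0.14; that is 41.5% called, against 25.9% of all genes. Lig1, the replicative ligase gene, rose from 32.2 ± 4.3 to 47.6 ± 2.2 CPM, Pcna, the gene of the sliding clamp, from 62.4 ± 2.1 to 76.9 ± 1.3 CPM, Pold1, the catalytic subunit of polymerase delta, from 25.2 ± 3.0 to 34.4 ± 0.57 CPM, and the glycosylase gene Neil3 from 4.38 ± 0.68 to 7.32 ± 0.4 CPM (SD, n = 3 each; edgeR adjusted p = 0.00038, 0.000427, 0.000817 and 0.000992). Against the labelled Gadd45a KO 16 rose, led by Pcna, Neil3, Lig1 and Pole, and 1 fell (41.5%, against 26.4% of all genes). Against Ing1 KO 13 rose, led by Pcna, Neil3, Rfc1 and Pole3, and 1 fell (34.1%, against 24.8%). In Ing1 KO against the WT 5 rose and 4 fell, 22% called, close to the 23.5% of all genes. Apex1, the gene of the nuclease that cuts at a lost base, rose from 11.4 ± 1.2 to 15.1 ± 1.4 CPM, and Pold2 rose from 16.4 ± 1.5 to 19.9 ± 1.1 CPM, while Rfc1 fell from 87.6 ± 4.7 to 76.6 ± 2.8 CPM and Neil2 from 0.935 ± 0.13 to 0.464 ± 0.19 CPM (edgeR adjusted p = 0.007, 0.0184, 0.00784 and 0.016). None of the 41 was called in the labelled Gadd45a KO by edgeR, and 1 had an unadjusted p under 0.05 there.

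Markers of the cell cycle and of another cell type moved with the labelled DKO. All 25 cell cycle genes rose in it against the WT, with a median log2 fold change of 0.47, and their summed level was 1434.0 to 1443.2 CPM in the labelled DKO against 944.0 to 1130.1 in the WT, 926.0 to 1040.8 in the labelled Gadd45a KO and 1052.2 to 1118.9 in Ing1 KO. All 17 macrophage and blood markers rose as well, with a median of 2.61 and none at 0 in every library, and their summed level was 2282.4 to 2852.6 CPM against 266.3 to 458.7 CPM in the WT, 140.7 to 557.7 in the labelled Gadd45a KO and 359.0 to 630.4 in Ing1 KO. Of the other lists, 10 endothelial and 7 epithelial markers summed to at most 11.8 and 9.12 CPM in any library. Both highest sums were in the labelled DKO, and 6 of the 10 endothelial and 4 of the 7 epithelial markers had a mean under 1 CPM. Against the WT, 3 of 8 tested endothelial genes were called higher there and 1 lower, and 2 of 3 tested epithelial genes higher. The 9 skeletal muscle markers summed to 32.8 to 36.3 CPM against 21.5 to 26.5 CPM in the WT, with 1 of 4 tested genes called higher and 1 lower. None of 8 tested cartilage genes was called. The part of the cell cycle and of macrophage RNA in the rise of Ung, Pold3, Parp1 and Polb was not tested, and in bulk RNA a change per cell and a change in the mix of cells cannot be told apart.

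**Figure D5:**
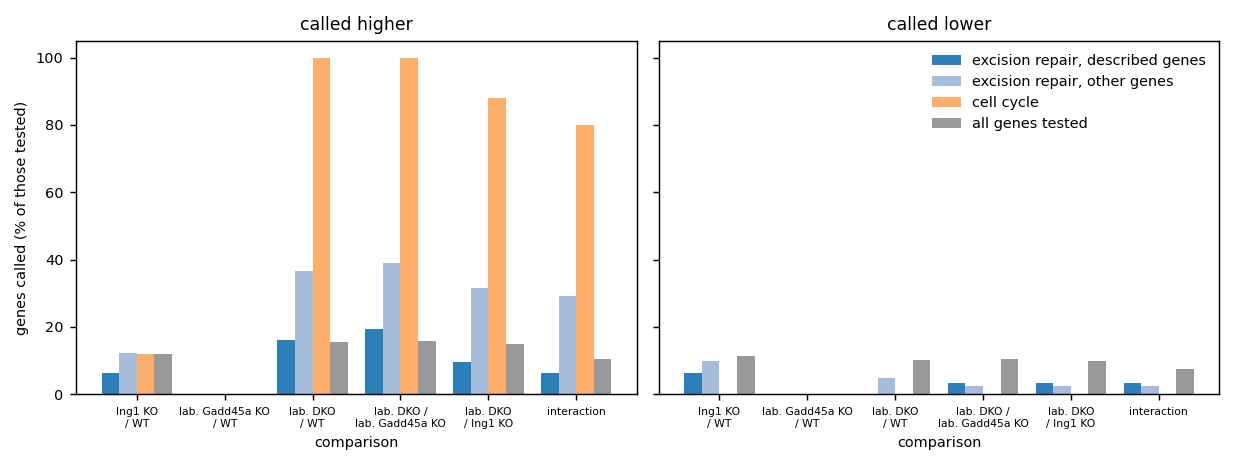
Share of genes called higher (left) and lower (right) in each of 6 comparisons (x axis), as a percentage of the genes tested (y axis), for the 31 excision repair genes, 41 other excision repair genes, 25 cell cycle genes and all genes tested. For the labelled DKO against the WT, 100% of the cell cycle genes, 5 of the 31 repair genes and 15.6% of all genes are called higher, and 0 of the 31 repair genes and 10.3% of all genes lower.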

How the data were processed

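Polyadenylated RNA of 12 libraries was sequenced as single reads from libraries without strand marking, per the labels' protocols. The authors deposited whole-number read counts per Ensembl gene, 1 table per library; the submitters' processing notes name TopHat2 2.0.9, Bowtie2 2.1.0, HTSeq 0.5.4 and DESeq and the build mm9 (NCBIM37). Lines of reads assigned to no gene (23.9 to 24.9% of reads listed) were left out. The counts were fitted with edgeR 4.0.16 in R 4.3.3 (TMM scaling, filterByExpr, robust quasi-likelihood test, 4 group means over all 12 libraries, 8 residual degrees of freedom) for 5 pairwise comparisons and the interaction. Benjamini-Hochberg adjustment ran over the 15098 genes tested, with a threshold of 0.05; intervals are 95%, unadjusted. The test was run on simulated counts with 200 genes changed and 1 spread setting for every gene, a simpler setting than these data. CPM use TMM-scaled library sizes. Exon lengths are the union of GENCODE exons of a later build than that of the counts. The exon bases shared between genes come from the same later build. The members and gene lists were chosen with earlier results of these data known. All 31 members are accounted for, those called by library; of the other excision repair genes the 4 called with the smallest adjusted p are named per comparison. Alternatives were DESeq2 1.42.0, RLE size factors, no filter, only the groups compared, the replicate block and leaving out each library.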

Additional observations from a re-analysis of the deposited data

Results flagged for a closer look

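The change with Ing1 loss of 3 of the 31 excision repair genes, and of 13 of the 41 other ones, differed between the Gadd45a backgrounds (9.68% and 31.7%, against 17.8% of all genes), by edgeR's test of the interaction itself; a positive log2 value means a higher level in the labelled DKO than the sum of both single changes gives. Among the 31 genes these were Parp1 (0.25), Pold3 (0.36) and Ogg1 (-0.32); the call was lost in 0, 6 and 14 of 16 alternatives, respectively. Among the other ones the 4 with the smallest adjusted p were Pcna (0.5), Neil3 (1.23), Rfc1 (0.41) and Pole3 (0.32). The sum of 25 cell cycle genes was also highest in the labelled DKO, and its part in these values was not tested. Parp1 stood lowest in Ing1 KO and highest in the labelled DKO, Pold3 stood apart in the labelled DKO, and Ogg1 was highest in Ing1 KO. Groups of 3 libraries are too small for a test of single outlying libraries.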

How the results depend on the processing

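Of the 23 calls among the 31 genes over 6 comparisons, 11 were kept under every alternative and 0 changed sign: Ddb2 and Ercc2 in Ing1 KO against the WT, Parp1 in its 4 comparisons, Pold3 in its 3 pairwise ones, and Ung in the labelled DKO against the WT and against Ing1 KO. With only the 2 groups compared in the fit, the calls among the 31 genes numbered 2 for Ing1 KO and the WT (4 with all 12 libraries) and 3 for the labelled DKO and the WT (5 with all). Leaving out 1 library at a time gave 2 to 4 called genes in Ing1 KO, 3 to 5 in the labelled DKO and 0 to 0 in the labelled Gadd45a KO against the WT, 2 to 6 in the labelled DKO against the labelled Gadd45a KO, 3 to 5 against Ing1 KO, and 1 to 4 for the interaction. The lowest counts came without WT replicate 2 or Ing1 KO replicate 2 (2), without WT replicate 2 or DKO replicate 2 (3), and without Gadd45a KO replicate 1 (2). Of single results not called, 12 were called under some alternative. In the labelled Gadd45a KO against the WT, DESeq2 called 31 genes of all tested and edgeR 1, with 0 of the 31 excision repair genes in either. Over all groups the replicate numbers did not pair the libraries: 18 same-numbered pairs had correlations of -0.177 to 0.336, with 4 over 0.1, and 5 of 12 libraries correlated best with their own number. The 36 pairs of unlike number had correlations of -0.24 to 0.182. The 3 same-numbered pairs of the WT and the labelled Gadd45a KO were all over 0.1 (0.336, 0.105 and 0.129). Between these groups WT 2 with Gadd45a KO 3 (0.112) and WT 3 with Gadd45a KO 2 (0.132) were over 0.1 too, and the remaining pairs were negative. The block left 0 of the 31 genes and 1 of all genes called there. With the replicate block, 4, 0, 4, 7, 4 and 2 of the 31 genes were called, in the order Ing1 KO, labelled Gadd45a KO and labelled DKO against the WT, labelled DKO against the labelled Gadd45a KO and against Ing1 KO, and the interaction. The causes were not tested. Depth limits the genes of few counts: the 95% interval of Mutyh in the labelled Gadd45a KO against the WT ran from -0.48 to 0.16 on the log2 scale.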
